A study of Mus musculus with 4 samples.

Results

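The genes described here carry out the synthesis of cholesterol and of fatty acids, together with the regulators that sense sterols and switch these genes on. They were taken by symbol, 33 genes in all, from a deposited table of 54532 genes: 6 regulators and sterol carriers, 7 enzymes of the mevalonate steps, 11 enzymes of the squalene and sterol steps, and 9 enzymes that make, desaturate or lengthen fatty acids. All 33 were found, each under a single identifier, and 32 had enough counts to be tested, the exception being Fdps. RNA was sequenced from mouse astrocytes that received Ptbp1 siRNA (a short RNA duplex that directs the degradation of the Ptbp1 transcript), with 2 libraries, and from astrocytes that received an siRNA labelled NC, with 2 libraries. The table's columns name the NC siRNA group as the control, and both groups carry an siRNA. The sources used here do not give strain, age or time after treatment. They also do not say that the 2 libraries of either siRNA were grown as independent cultures, and the p-values then reflect only how these samples vary, part of which may be technical.

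Cholesterol does not cross from blood into brain in useful amounts, and astrocytes are a main source of the cholesterol and long-chain fatty acids that other brain cells use. Transcription of the pathway is driven by sterol regulatory element binding proteins (SREBPs), which are made as membrane proteins of the endoplasmic reticulum. When membrane sterol is low, the escort protein SCAP carries them to the Golgi, where they are cut and a fragment enters the nucleus. When sterol is high, INSIG proteins hold SCAP and SREBP back. SREBPs bind sterol regulatory elements (SREs) near gene starts and usually act with NF-Y, which binds CCAAT boxes, and with Sp1, which binds GC boxes.

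Because these genes share regulators that act at their starts, promoter windows of RefSeq (GRCm38.p6, 250 bases before to 50 bases after a start) were read for 26 of the 33 genes, which have 34 windows between them. No window was at hand for Fads1, Scd1, Scd2, Fdps, Stard4, Fdft1 and Sqle, so their motifs were not read. A core form of the SRE, TCACNCCA on either strand, lay in 3 windows (8.82%), those of Hmgcs1, Msmo1 and Srebf2, against 4.36% of all 32851 mouse windows. The CCAAT box, CCAAT on either strand, lay in 22 windows (64.7%) against 37.4% of all windows. The GC box, GGGCGG on either strand, lay in 25 windows (73.5%) against 35.7%, and the E-box CACGTG, a palindrome, in 7 (20.6%) against 7.15%. Windows of the same gene can overlap, and the same E-box of Scap lies in both of its windows. By gene, 21 of the 26 had a CCAAT box, 21 a GC box and 6 an E-box. No SRE core overlapped a CCAAT box in the windows printed. These are matches of letters, and binding was not measured. The windows with an SRE core follow, with that of Nsdhl, the gene with the smallest p in the comparison of the siRNAs. Each is printed along its gene's own strand, and capitals mark the SRE core and the CCAAT boxes, which read ATTGG where they lie on the opposite strand.
Hmgcs1, chr13:119690101-119690400, plus strand: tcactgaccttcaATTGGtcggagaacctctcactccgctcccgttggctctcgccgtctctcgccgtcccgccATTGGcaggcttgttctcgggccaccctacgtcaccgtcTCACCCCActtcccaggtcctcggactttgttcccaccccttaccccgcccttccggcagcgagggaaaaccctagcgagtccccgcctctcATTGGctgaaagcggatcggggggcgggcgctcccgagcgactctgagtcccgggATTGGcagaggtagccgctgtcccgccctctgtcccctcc
Msmo1, chr8:64733529-64733828, minus strand: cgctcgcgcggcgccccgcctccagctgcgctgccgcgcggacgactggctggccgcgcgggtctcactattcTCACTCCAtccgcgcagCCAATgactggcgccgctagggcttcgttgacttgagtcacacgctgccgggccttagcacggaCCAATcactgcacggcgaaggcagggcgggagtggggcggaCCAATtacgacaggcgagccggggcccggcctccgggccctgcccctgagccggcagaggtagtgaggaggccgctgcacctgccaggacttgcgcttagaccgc
Srebf2, chr15:82147019-82147318, plus strand: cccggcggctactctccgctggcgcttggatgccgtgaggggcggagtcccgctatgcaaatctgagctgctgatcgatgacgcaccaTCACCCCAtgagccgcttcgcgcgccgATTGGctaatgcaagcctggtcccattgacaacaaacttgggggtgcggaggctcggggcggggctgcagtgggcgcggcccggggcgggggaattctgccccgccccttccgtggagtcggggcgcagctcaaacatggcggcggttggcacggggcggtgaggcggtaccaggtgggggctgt
Nsdhl, chrX:72918271-72918570, plus strand: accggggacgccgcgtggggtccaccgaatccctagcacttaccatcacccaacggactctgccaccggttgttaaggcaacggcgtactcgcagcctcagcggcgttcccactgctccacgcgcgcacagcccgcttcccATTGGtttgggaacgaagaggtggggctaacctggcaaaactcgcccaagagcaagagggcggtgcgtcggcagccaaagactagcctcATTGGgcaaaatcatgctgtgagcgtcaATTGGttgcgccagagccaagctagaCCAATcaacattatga

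In these sequences the SRE core began at base -137 of Hmgcs1, -177 of Msmo1 and -162 of Srebf2, counted from the RefSeq start. Hmgcs1 had 4 CCAAT boxes, of which that at base 11 lay after the start. Msmo1 had 3 and Srebf2 had 1, all before the start. Nsdhl had 4, of which 2 lay after the start. The median log2 fold change of Ptbp1 siRNA over NC siRNA, described further on, was -0.09 over the 3 genes with an SRE core and -0.03 over the 23 others with a window. The 3 genes with an SRE core were at -0.09 (Hmgcs1), -0.13 (Msmo1) and 0.02 (Srebf2). The median was -0.04 over the 21 genes with a CCAAT box and 0.06 over the 5 without. With the GC box it was -0.04 over 21 genes, and 0.02 over the 5 without. The E-box went the other way, with -0.02 over 6 genes that have it and -0.04 over the 20 without. The differences between these medians were not tested. Genes with no window, Scd1, Scd2 and Stard4 among them, are in none of these medians.

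**Figure D1:**
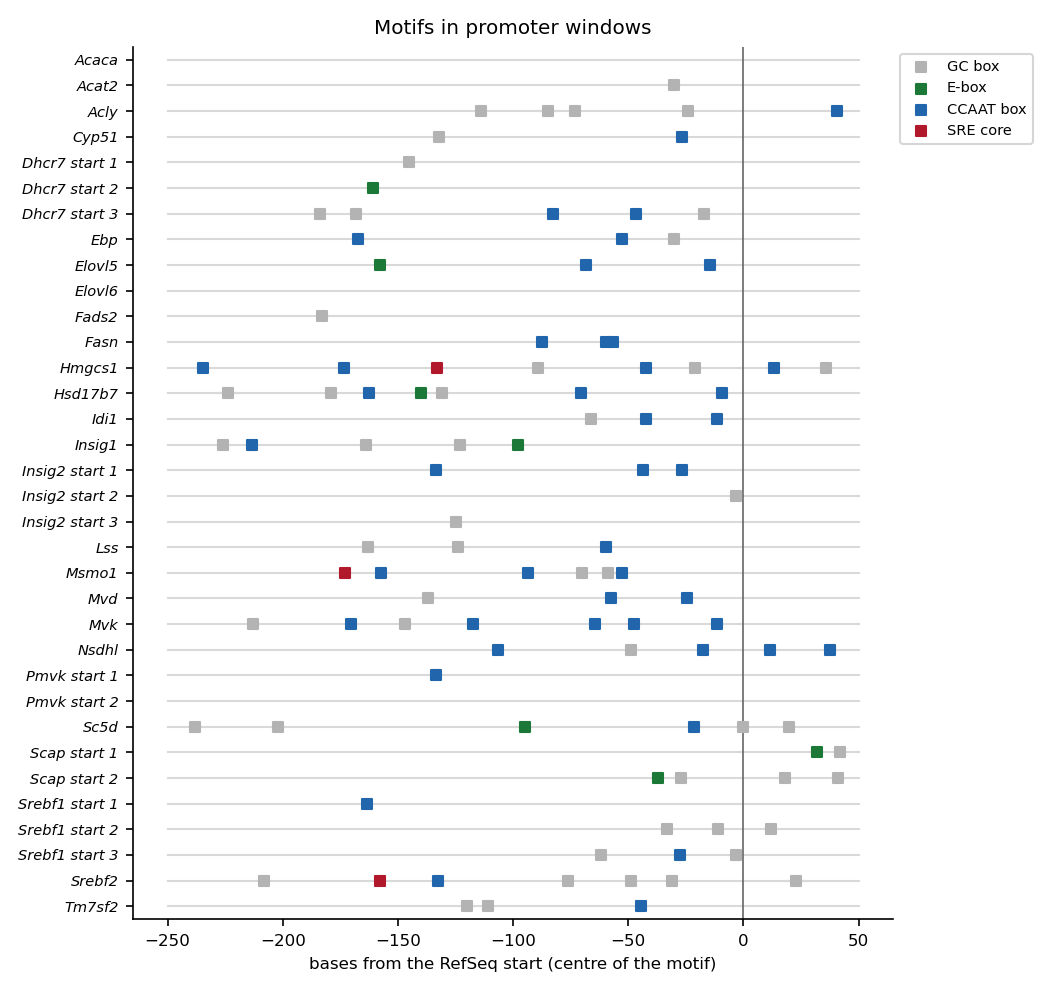
Position of the SRE core (red), the CCAAT box (blue), the E-box (green) and the GC box (grey) in the 34 promoter windows, with bases from the RefSeq start on the x axis (0 is the start, negative values lie before it) and a line for each window. Squares mark motif centres; SRE cores appear in 3 windows and CCAAT boxes in 22.

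Gene counts totalled 14557844 and 14981622 in the Ptbp1 siRNA libraries and 16009248 and 15002578 in the NC siRNA libraries. Ptbp1, the target of the siRNA and the gene of a splicing repressor, stood at 203 and 196 CPM (counts scaled to library depth, with TMM scaling) in Ptbp1 siRNA libraries and at 300.4 and 295 CPM in NC siRNA libraries. Its log2 fold change was -0.58 (SE 0.063), a change of -33.1%, and 4 of 16368 genes tested (0.0244%) passed an adjusted p of 0.05 (edgeR quasi-likelihood test, Benjamini-Hochberg), Ptbp1 among them. The cultures are labelled as astrocytes. Summed over 12 astrocyte markers, all of them tested, the level was 2460 and 2179 CPM with Ptbp1 siRNA and 2522 and 2363 CPM with NC siRNA. The 12 markers of the oligodendrocyte lineage, itself rich in lipid synthesis, of which 9 were tested and the myelin gene Mobp was at 0 in each library, summed to 369 to 410 CPM with Ptbp1 siRNA and 404 to 413 CPM with NC siRNA. NC siRNA 2 stood apart in the 10 choroid plexus and ependymal markers, which summed to 399 to 428 CPM with Ptbp1 siRNA, to 437 CPM in NC siRNA 1 and to 808 CPM in NC siRNA 2. Summed markers of microglia and macrophages were at 974 to 1023.0 CPM with Ptbp1 siRNA and at 1023.1 to 1037 CPM with NC siRNA, and those of fibroblasts and mural cells at 5442 to 6400.1 CPM with Ptbp1 siRNA and at 6026 to 6304 CPM with NC siRNA. The part of these markers in the results was not tested. Fewer cells of a type and less RNA per cell cannot be told apart in such bulk samples.

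Levels between genes were compared per length, on the deposited FPKM (fragments scaled to gene length and library depth). The fatty acid enzymes were the most abundant group, with a median of 25.03 to 26.98 FPKM over 9 genes in the separate libraries. The 6 regulators and carriers had medians of 12.82 to 13.96 FPKM, the 7 mevalonate enzymes 5.09 to 6.71 FPKM and the 11 sterol enzymes 4.76 to 5.37 FPKM. Over all genes tested the median was 5.28 to 5.35 FPKM.

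Fads2 and Scd2, desaturases for polyunsaturated and for saturated fatty acids, had the highest mean levels over the 4 libraries, at 80.0 and 77.5 FPKM, and their ranges of 75.5 to 84.5 and 65.0 to 90.3 FPKM overlapped. The value of Fads2 rests on a deposited gene length of 1508 bases. GENCODE M21, on the same assembly, gives it 3295 exonic bases, and on that length the same counts would come to 36.6 FPKM. Fads1 followed with 34.2 FPKM, then Acly with 27.8 FPKM and Elovl5 with 26.2 FPKM. On GENCODE M21 lengths Fads1 would come to 24.6 FPKM, below Acly and Elovl5, whose lengths are the same in both. Next came Hmgcs1, Fasn, Srebf2 and Srebf1, between 15.2 and 16.3 FPKM, whose ranges over libraries overlapped. At the low end stood Dhcr7 with 1.83 FPKM, Stard4 with 1.47 FPKM and Tm7sf2 with 1.05 FPKM.

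**Figure D2:**
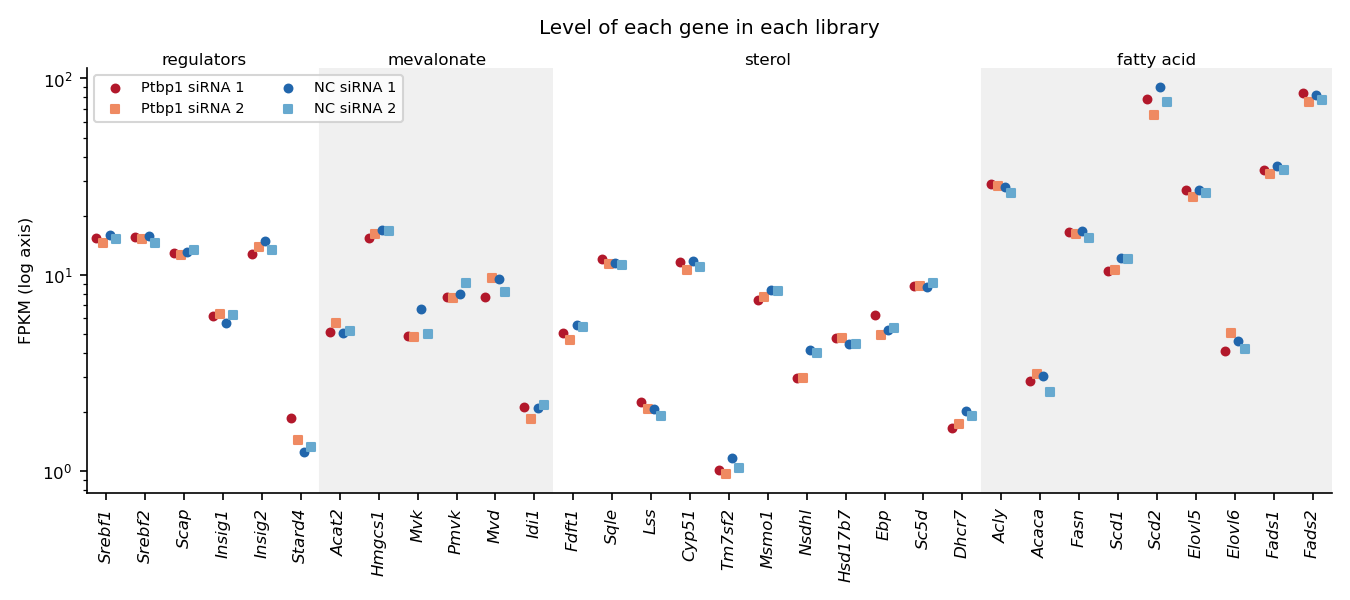
Level of 32 genes in FPKM (log axis) in each library, grouped by role. Points are single libraries: red circles and orange squares are Ptbp1 siRNA 1 and 2, dark blue circles and light blue squares are NC siRNA 1 and 2; Fdps, with 0.0 to 0.0977 FPKM, is not drawn, and Scd2 and Fads2 lie highest.

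Fdps, the synthase of farnesyl diphosphate and the last common enzyme before sterols and other isoprenoids, had almost no counts. The table held 6 and 0 counts in Ptbp1 siRNA libraries and 5 and 2 counts in NC siRNA libraries. Fdps (chromosome 3, 89093588 to 89101959, minus strand, GRCm38) overlaps the protein-coding gene Gm43738 on the same strand, and 85.9% of the coding bases of Fdps in GENCODE M21 lie in exons of that gene too. Gm43738 itself had 0 and 0 counts in Ptbp1 siRNA libraries and 0 and 3 counts in NC siRNA libraries. The sources used here do not give how reads matching both genes were counted, and its part in the low counts of Fdps was not tested. Fdps had too few counts for the test.

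Other genes of the pathway also share sequence. Of the 50-base stretches of their transcripts, 39.1% of those of Acat2 also occur in other genes, chiefly its paralog Acat3. The share was 30.4% for Acaca, chiefly with Gm5182, and 17.7% for Idi1. It was 9.87% for Tm7sf2 and 9.38% for Fdft1. Fdft1 also overlaps the cathepsin gene Ctsb on the opposite strand over 18.3% of its exonic bases, and Ctsb had 13954 to 16109 counts per library. The sources used here do not say if reads were assigned by strand, so reads of Fdft1 and Ctsb may not have been told apart, and the same holds for the pairs that follow. Cyp51 overlaps Akap9 on the opposite strand over 3.76% of its exonic bases, with 1964 to 2569 counts for Akap9, and Srebf1 overlaps Rai1 over 1.93%, with 2162 to 2527 counts for Rai1. Hmgcs1, Scap and Idi1 overlap opposite-strand genes that had at most 13 counts in any library. In GENCODE M21, Tm7sf2 overlaps Vps51 on the same strand over 12.1% of its exonic bases, and Vps51 had 23 to 28 counts. The counted form of Tm7sf2 is another one. The deposited gene ends at base 6077197 of chromosome 19 with a length of 5593 bases. GENCODE M21 ends it at 6068373 with 4403 exonic bases. The overlap of the counted form was not measured. The values of these genes are uncertain to that extent, and that of Tm7sf2 to an extent not known. For Scd1 and Scd2, a pair of close paralogs, the shares were 4.56% and 3.97%.

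In the comparison of the siRNAs, which asks how astrocyte expression differs when Ptbp1 is lowered, none of the 32 genes tested passed an adjusted p of 0.05 in the edgeR quasi-likelihood test, where 0.0244% of all genes did. At an unadjusted p under 0.05 edgeR gave 3 genes, Nsdhl, Scd1 and Scd2, all with lower values in Ptbp1 siRNA libraries. That is 9.38% of the 32 genes, against 2.29% of all genes tested that were lower at that level, while 0 of the 32 were higher, against 1.69%. In either direction 3.98% of all genes were at that level. DESeq2 gave 0 of 33 genes at that level, where it gave 0.512% of all genes, and limma on log2(FPKM + 1) gave 2 of 32, Nsdhl and Scd1, where it gave 4.67% of all genes. With 1 library left out, in fits that estimate the spread differently and are not on a par with the main one, the genes at that level were others in part. Without Ptbp1 siRNA 1 they were Nsdhl and Scd2, both lower (5.05% of all genes were at that level in either direction). Without Ptbp1 siRNA 2 they were Nsdhl, lower, and Stard4, higher (3.65% of all genes). Without NC siRNA 1 the single gene was Acaca, higher (5.6% of all genes), and without NC siRNA 2 they were Mvk, Nsdhl, Scd1 and Scd2, all lower (6.12% of all genes). The authors' deposited table gave 0 of 33 genes an adjusted p under 0.05 and 0 an unadjusted one, and the smallest p there was 0.0822.

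The fold changes were small. They ran from -0.44 to 0.35 on the log2 scale, with a median of -0.03 beside a median of 0.00036 over all genes tested, and 20 of 32 were negative (62.5%, against 49.8% of all genes tested). The median absolute log2 fold change was 0.086 for these genes and 0.086 for all genes tested. For 28 of 32 genes (87.5%, against 67.1% of all genes tested) the 95% interval lay within a 1.5-fold change either way. The others were Nsdhl, Mvk, Stard4 and Tm7sf2, with 356 to 876 counts over the 4 libraries. Counts alone do not set them apart, since Idi1 with 438 counts and Dhcr7 with 648 had intervals within a 1.5-fold change. For all 32 genes the interval lay within a 2-fold change. Without NC siRNA 2, the library with the most choroid plexus and ependymal transcripts, the median log2 fold change of the 32 genes was -0.06. Without it, values further from 0 included Insig2 at -0.16, against -0.09 with all libraries, and Tm7sf2 at -0.23, against -0.15. Nearer to 0 were Pmvk at -0.07, against -0.16, Lss at 0.06, against 0.12, and Acly at 0.04, against 0.09.

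**Figure D3:**
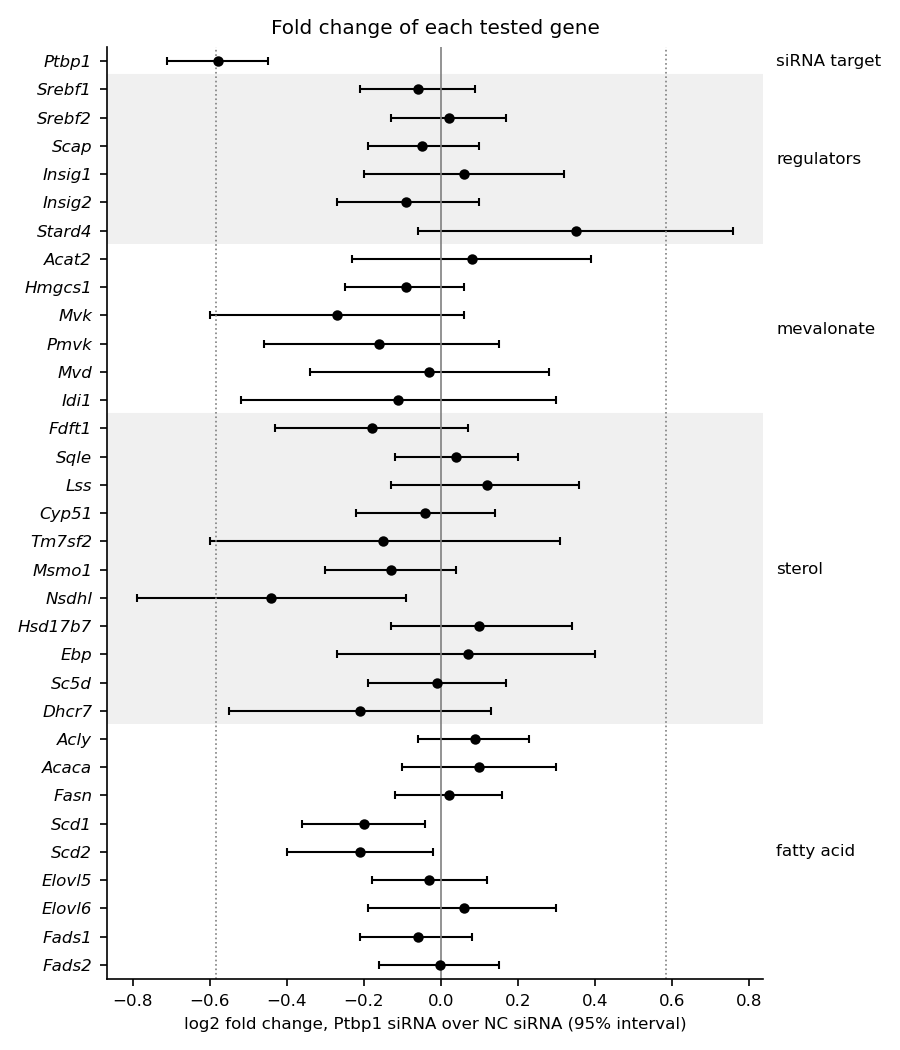
Log2 fold change of Ptbp1 siRNA over NC siRNA for Ptbp1 and the 32 genes tested, grouped by role, with 95% intervals from the edgeR fit (n = 2 libraries per group). The solid line is no change and the dotted lines are a 1.5-fold change; Ptbp1 lies at -0.58 and the 32 genes between -0.44 and 0.35.

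Srebf1, which encodes the SREBPs that act mainly on fatty acid genes (chromosome 11, 60199089 to 60222581), stood at 86.7 and 82.3 CPM in Ptbp1 siRNA libraries and at 89.8 and 86.2 CPM in NC siRNA libraries. The groups overlapped, and the log2 fold change was -0.06 (95% interval -0.21 to 0.09). Srebf2, whose product acts mainly on cholesterol genes (chromosome 15, 82147181 to 82205379), stood at 112 and 109.9 CPM with Ptbp1 siRNA and at 113 and 105 CPM with NC siRNA. The NC siRNA libraries enclosed both others, and the log2 fold change was 0.02 (95% interval -0.13 to 0.17). Per length the levels of the SREBP genes were nearly equal. The ratio of Srebf1 to Srebf2 in FPKM was 0.987 and 0.955 with Ptbp1 siRNA and 1.012 and 1.04 with NC siRNA. Both Ptbp1 siRNA libraries had the lower ratio, but the gap between the groups was smaller than the difference within either group. The ratio was not tested.

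Scap, the escort of the SREBPs, stood at 96.5 and 94.1 CPM with Ptbp1 siRNA and at 97.4 and 99.7 CPM with NC siRNA. Both Ptbp1 siRNA libraries were lower by a small margin, with a log2 fold change of -0.05 (95% interval -0.19 to 0.10). Insig1, the sterol-responsive anchor of SCAP, stood at 19.1 and 19.7 CPM with Ptbp1 siRNA and at 17.7 and 19.4 CPM with NC siRNA. Insig2, the other anchor, stood at 44.5 and 48.6 CPM with Ptbp1 siRNA and at 52.0 and 46.8 CPM with NC siRNA. Groups overlapped for both anchors, with log2 fold changes of 0.06 (95% interval -0.20 to 0.32) for Insig1 and -0.09 (95% interval -0.27 to 0.10) for Insig2. In FPKM, Insig1 was at 0.481 and 0.454 of the level of Insig2 with Ptbp1 siRNA and at 0.383 and 0.465 with NC siRNA.

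Stard4 encodes a soluble carrier that moves cholesterol between membranes (chromosome 18, 33199355 to 33213862). Its counts were 151 and 121 with Ptbp1 siRNA and 113 and 112 with NC siRNA, which is 10.4 and 8.12 CPM against 7.05 and 7.47 CPM. Both Ptbp1 siRNA libraries were higher, the first more than the second. The log2 fold change of 0.35 was the most positive of the 32 and did not pass (95% interval -0.06 to 0.76, edgeR adjusted p = 1.00); it was 0.52 without Ptbp1 siRNA 2 and 0.16 without Ptbp1 siRNA 1.

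Of the mevalonate enzymes, 6 were tested, 5 had a negative fold change, and the groups did not overlap for 3, all lower with Ptbp1 siRNA. Of all genes tested, 49.8% had a negative fold change and 31.5% had groups that did not overlap, 15.9% being lower and 15.6% higher. The median log2 fold change of the 6 mevalonate enzymes was -0.10. Hmgcs1, the synthase that commits acetyl units to the pathway (chromosome 13, 119690379 to 119708260), has an SRE core and 4 CCAAT boxes in the window printed above. It stood at 71.1 and 74.4 CPM with Ptbp1 siRNA and at 77.9 and 77.2 CPM with NC siRNA, with both Ptbp1 siRNA libraries lower. The log2 fold change was -0.09 (95% interval -0.25 to 0.06, edgeR adjusted p = 1.00). Mvk, the mevalonate kinase, stood at 13.2 and 13.0 CPM with Ptbp1 siRNA and at 18.03 and 13.5 CPM with NC siRNA. NC siRNA 1 was the high library, while the other NC siRNA library lay close to the Ptbp1 siRNA libraries. Its log2 fold change of -0.27 (95% interval -0.60 to 0.06) was -0.04 without NC siRNA 1 and -0.46 without NC siRNA 2. The thiolase Acat2, the kinase Pmvk, the decarboxylase Mvd and the isomerase Idi1 had log2 fold changes between -0.16 and 0.08.

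Of the 11 sterol enzymes, 7 had a negative fold change (63.6%, against 49.8% of all genes tested). Their median was -0.04. The groups did not overlap for 6 (54.5%, against 31.5%). Of these, 5 were lower (45.5%, against 15.9%) and 1 was higher with Ptbp1 siRNA (9.09%, against 15.6%). The most negative value belonged to Nsdhl, a dehydrogenase that acts with Msmo1 and Hsd17b7 in removing methyl groups from the sterol ring (chromosome X, 72918557 to 72958514, plus strand). Its counts were 124 and 127 with Ptbp1 siRNA and 189 and 171 with NC siRNA, or 8.54 and 8.52 CPM against 11.8 and 11.4 CPM. The libraries of each group lay close together and the groups did not overlap. The log2 fold change was -0.44 (SE 0.16, 95% interval -0.79 to -0.09), a difference of -26.4%, with an edgeR unadjusted p of 0.0161 and an adjusted p of 1.00 over 16368 genes. With single libraries left out it ran from -0.47 to -0.42.

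The genes of its partner enzymes gave different values. Msmo1, the methylsterol oxidase, has an SRE core in the window printed above and stood at 46.0 and 47.6 CPM with Ptbp1 siRNA and at 51.7 and 50.8 CPM with NC siRNA. Both Ptbp1 siRNA libraries were lower, with a log2 fold change of -0.13 (95% interval -0.30 to 0.04). Hsd17b7, the ketosteroid reductase of the same step, stood at 24.4 and 24.4 CPM with Ptbp1 siRNA and at 22.7 and 22.7 CPM with NC siRNA. It was the single sterol enzyme with both Ptbp1 siRNA libraries higher, with a log2 fold change of 0.10 (95% interval -0.13 to 0.34). Neither passed, with edgeR adjusted p-values of 1.00. The difference in fold change between these genes was not tested.

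Earlier in the sterol branch, Fdft1, the squalene synthase, stood at 21.4 and 19.7 CPM with Ptbp1 siRNA and at 23.6 and 22.9 CPM with NC siRNA. The groups did not overlap, and the log2 fold change was -0.18 (95% interval -0.43 to 0.07). Sqle, the squalene epoxidase, had the highest mean of the sterol enzymes, 11.5 FPKM, with a range over libraries that overlapped that of Cyp51 at 11.2 FPKM. It stood at 66.7 and 63.3 CPM with Ptbp1 siRNA and at 64.3 and 62.2 CPM with NC siRNA. Its groups overlapped, with a log2 fold change of 0.04 (95% interval -0.12 to 0.20). Lanosterol synthase (Lss), lanosterol demethylase (Cyp51), the reductases Tm7sf2 and Dhcr7, the isomerase Ebp and the desaturase Sc5d had log2 fold changes between -0.21 for Dhcr7 and 0.12 for Lss.

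The fatty acid enzymes had a median log2 fold change of -0.002 over 9 genes, and every 95% interval lay within a 1.5-fold change. Those that supply and join acetyl units did not pass: Acly, which makes cytosolic acetyl-CoA, had a log2 fold change of 0.09, the carboxylase Acaca 0.10 and the synthase Fasn 0.02. Acly stood at 154 and 150.2 CPM with Ptbp1 siRNA and at 148 and 139 CPM with NC siRNA, with both Ptbp1 siRNA libraries higher.

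Both stearoyl-CoA desaturases, which make oleic and palmitoleic acid, had lower values with Ptbp1 siRNA. Scd1 (minus strand of chromosome 19, 44394451 to 44407709) stood at 51.0 and 51.5 CPM with Ptbp1 siRNA and at 59.4 and 58.4 CPM with NC siRNA. Its libraries were close within each group, and the groups did not overlap. The log2 fold change was -0.20 (SE 0.077, 95% interval -0.36 to -0.04, edgeR unadjusted p = 0.0196, adjusted p = 1.00), a difference of -12.9%. With single libraries left out it ran from -0.21 to -0.19.

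Scd2, the main form in mouse brain (chromosome 19, 44293676 to 44306864, plus strand), stood at 433 and 356 CPM with Ptbp1 siRNA and at 495 and 415 CPM with NC siRNA. The libraries differed more within each group than the group means did from each other, and the groups overlapped, with Ptbp1 siRNA 1 above NC siRNA 2. The log2 fold change was -0.21 (SE 0.09, 95% interval -0.40 to -0.02, edgeR unadjusted p = 0.0356, adjusted p = 1.00). It was -0.36 without Ptbp1 siRNA 1, -0.07 without Ptbp1 siRNA 2 and -0.08 without NC siRNA 1. Without NC siRNA 2 it was -0.33 and passed (edgeR adjusted p = 0.000747), the single such case among these genes, in a fit whose spread came from the trend over all genes. The libraries stood in the same order for Scd2 as for the summed astrocyte and oligodendrocyte lineage markers given above. NC siRNA 1 was highest, then Ptbp1 siRNA 1, NC siRNA 2 and Ptbp1 siRNA 2. That order is not particular to Scd2, since Cyp51, Elovl5 and Srebf1, with fold changes nearer to none, had it too. The part of these markers in the values of Scd2 was not tested. The ratio of Scd1 to Scd2 in FPKM was 0.133 and 0.163 with Ptbp1 siRNA and 0.135 and 0.158 with NC siRNA, so the second library of each group had the higher ratio.

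The elongases and the desaturases of polyunsaturated acids lay closer to no change. Elovl5, which lengthens polyunsaturated acids, stood at 95.3 and 88.6 CPM with Ptbp1 siRNA and at 95.5 and 91.97 CPM with NC siRNA. Elovl6, which lengthens saturated acids, stood at 26.5 and 32.7 CPM with Ptbp1 siRNA and at 29.8 and 27.1 CPM with NC siRNA. The groups overlapped for both, with log2 fold changes of -0.03 (95% interval -0.18 to 0.12) for Elovl5 and 0.06 (95% interval -0.19 to 0.30) for Elovl6. Fads1 stood at 118.96 and 113 CPM with Ptbp1 siRNA and at 124 and 118.99 CPM with NC siRNA. Its Ptbp1 siRNA libraries were lower, the first of them by less than the spread within either group, with a log2 fold change of -0.06 (95% interval -0.21 to 0.08). Fads2 stood at 128 and 114 CPM with Ptbp1 siRNA and at 125 and 118 CPM with NC siRNA, and its log2 fold change was -0.0020 (95% interval -0.16 to 0.15).

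**Figure D4:**
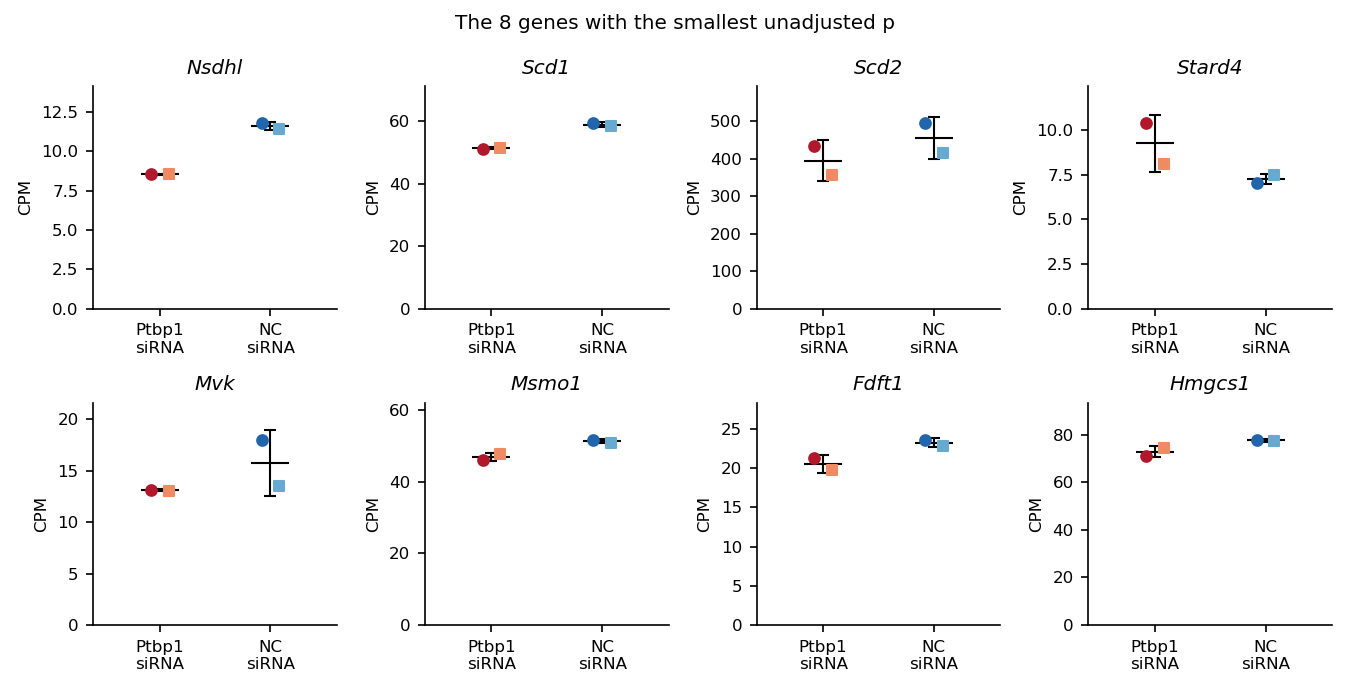
CPM of the 8 genes with the smallest unadjusted p, with Ptbp1 siRNA on the left and NC siRNA on the right of each panel. Points are single libraries (circles for replicate 1, squares for replicate 2), bars are the mean and SD of 2 libraries; groups overlap for Scd2 and lie apart for the other 7, and none passed after adjustment.

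Across the 32 genes the groups did not overlap for 14 (43.8%, against 31.5% of all genes tested). Of these, 11 were lower (34.4%, against 15.9%) and 3 were higher with Ptbp1 siRNA (9.38%, against 15.6%). The lists of cell type markers, astrocyte markers included, also had more negative than positive fold changes, where 49.8% of all genes tested were negative. For microglia and macrophages 9 of 11 tested markers were negative (median -0.19), and the groups lay apart for 4, all lower with Ptbp1 siRNA. For fibroblasts and mural cells 7 of 9 were negative (median -0.14), and the groups lay apart for 5, of which 4 were lower. Of the choroid plexus and ependymal markers 8 of 9 were negative (median -0.55), of the oligodendrocyte lineage markers 7 of 9 (median -0.08), and of the astrocyte markers 9 of 12 (median -0.07). Neuron markers lay nearest to no change, with 5 of 7 negative (median -0.03). The part of all these markers in the values of the 32 genes was not tested. The libraries also differed in how these genes lay as a whole. For each gene, the log2 CPM of a library was set against the gene's mean over the 4 libraries. Above that mean lay 16 of 32 genes in Ptbp1 siRNA 1, 9 in Ptbp1 siRNA 2, 25 in NC siRNA 1 and 13 in NC siRNA 2, where 50.5% to 51.5% of all genes tested did. NC siRNA 1 was the highest library for 16 of 32 genes, where it was so for 26.5% of all genes tested, and in it all 9 fatty acid enzymes lay above their means.

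The shift between the NC siRNA libraries exceeded 3 of the 4 shifts between a Ptbp1 siRNA and an NC siRNA library. The median log2 difference over the 32 genes was 0.055 for NC siRNA 1 minus NC siRNA 2 and 0.026 for Ptbp1 siRNA 1 minus Ptbp1 siRNA 2. Between groups it was -0.081 for Ptbp1 siRNA 2 minus NC siRNA 1 and -0.051 for Ptbp1 siRNA 2 minus NC siRNA 2. It was -0.038 for Ptbp1 siRNA 1 minus NC siRNA 1 and -0.016 for Ptbp1 siRNA 1 minus NC siRNA 2. Over all genes tested each of these medians lay between -0.002 and 0.004.

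**Figure D5:**
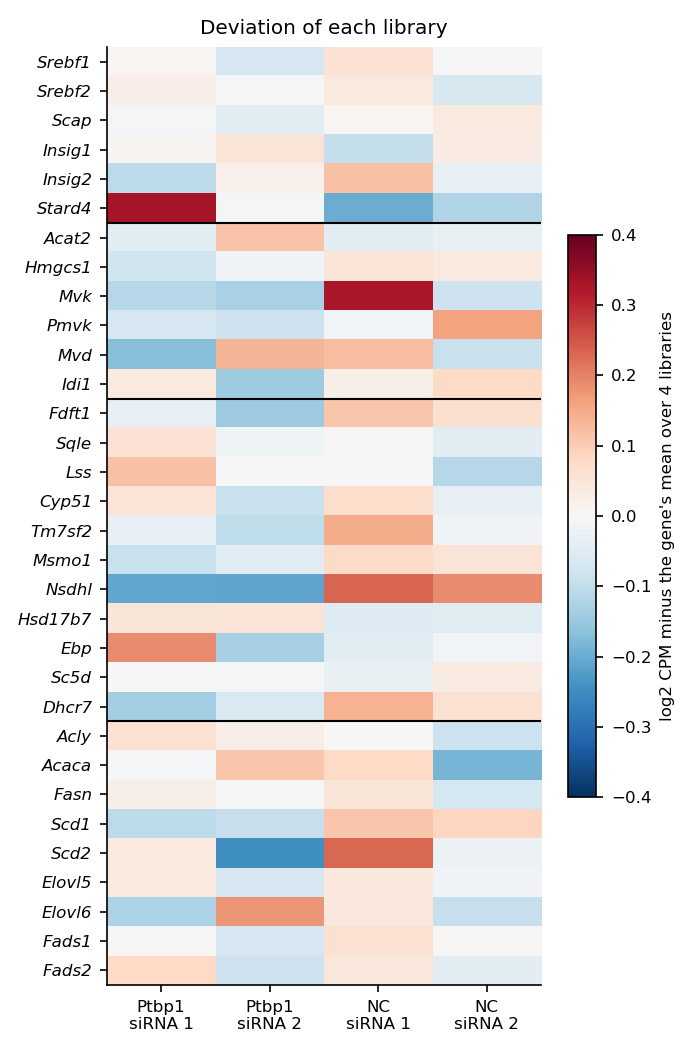
Log2 CPM of each library minus the gene's mean over the 4 libraries (colour scale, red higher and blue lower), for 32 genes in pathway order, with black lines between the role groups and Ptbp1 siRNA libraries on the left. Nsdhl and Scd1 are blue in both Ptbp1 siRNA libraries and red in both NC siRNA libraries; all 9 fatty acid enzymes lie above their means in NC siRNA 1.

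Further genes of sterol and lipid handling gave no calls either, in the edgeR test over all genes. Of 8 genes that cut SREBPs or degrade sterol sensors, all were tested and none had an unadjusted p under 0.05 (median log2 fold change 0.03). Mbtps2, a protease that cuts SREBPs in the Golgi, had the smallest p of that list, at -0.08 on the log2 scale with an SE of 0.096. Of 12 genes of isoprenoid branches and sterol side products, none had an unadjusted p under 0.05 (median -0.02). Nus1, a subunit of the enzyme that makes dolichol chains, was at 0.10 on the log2 scale with an SE of 0.071, and Fnta, the shared subunit of protein prenyltransferases, at -0.0034 with an SE of 0.074.

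Of 10 genes of sterol efflux, storage and the sterol-sensing LXR receptors, none had an unadjusted p under 0.05 (median 0.01). The efflux transporter gene Abca1 stood at 578 and 598 CPM with Ptbp1 siRNA and at 606 and 531 CPM with NC siRNA. Nr1h3, which encodes an LXR receptor, stood at 6.20 and 5.64 CPM against 4.49 and 4.87 CPM in NC siRNA libraries, with a log2 fold change of 0.34 (95% interval -0.14 to 0.81). Of 33 genes of fatty acid supply, elongation and glycerolipid synthesis, 30 were tested, with a median of -0.01. An unadjusted p under 0.05 was found for 3 of the 30, all higher with Ptbp1 siRNA. Of all genes tested, 1.69% were higher at that level and 3.98% were at it in either direction. Dgat1, an enzyme of the last step of triglyceride synthesis, was among them, at 32.4 and 30.7 CPM with Ptbp1 siRNA and 27.4 and 25.0 CPM with NC siRNA. Its groups did not overlap, with a log2 fold change of 0.27 (95% interval 0.05 to 0.49, edgeR adjusted p = 1.00). Hsd17b12, a reductase of fatty acid elongation with the highest CPM of that list, was at 0.03 on the log2 scale with an SE of 0.067.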

How the data were processed

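RNA from 4 libraries of mouse astrocytes was analysed. Libraries came from total RNA and a SMARTer kit, per the labels' protocols. GRCm38 and mm10, 2 names of 1 assembly, are the builds in the submitters' processing notes. Aligner, counting tool, strand setting and annotation release were not given in the sources used here. For each gene, the authors deposited whole-number counts per gene, FPKM on a deposited gene length, and their own comparison as group means (a signal of scaled counts), log2 fold changes and p-values. Columns were matched to samples by the sample descriptions. Depth was 14557844 to 16009248 counts per library.

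The test was the quasi-likelihood test of edgeR 4.0.16, run in R 4.3.3 (filterByExpr, TMM scaling, group as the only term, Benjamini-Hochberg adjustment over 16368 genes, two-sided). A call is an adjusted p under 0.05. Standard errors and 95% intervals come from the quasi-F statistic, with 2 residual and 14 prior degrees of freedom. Library deviations used log2(CPM + 0.5). The fit was tested on simulated counts. Alternatives were other scalings, DESeq2 1.42.0, limma 3.58.1 on log2(FPKM + 1), other filters, a replicate block and leaving out each library. The genes, lists and tests were chosen with earlier results of these data known. Named genes were the regulators, the 8 with the smallest p, the most abundant gene of each role, paralog pairs, and in each further list the gene with the smallest p and that with the highest CPM, of which 1 is not reported here; Hsd17b7 and Acly were given in full after their values were seen. Gene overlaps, exonic lengths and shared stretches were taken from GENCODE M21, which gives 28 of 33 genes the same coordinates as the deposited table. Counts can include PCR copies, since the labels mention no molecular identifiers.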

Additional observations from a re-analysis of the deposited data

How the results depend on the processing

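No gene of the group was called under any alternative that kept all 4 libraries. The number of genes called over the whole table was 4 in the main test, 0 with limma on log2(FPKM + 1) and 50 with no filter on low counts, and 34 to 75 when a library was left out. For the 32 genes it was 0 to 1 when a library was left out, the 1 being Scd2 without NC siRNA 2. With the replicate number as a block, 36 genes were called over the whole table and 0 of the 32, and the median log2 fold change of the 32 was -0.04. In that fit Scd2 was at -0.21 (edgeR adjusted p = 0.0686) and Scd1 at -0.20 (edgeR adjusted p = 0.470). The correlation of same-numbered deviations was 0.0909 over 16368 genes. It cannot settle if same-numbered libraries were paired, so the block fit is not read as a weaker or stronger effect. The prior degrees of freedom, 14 in the main test, were infinite with a library left out and with no filter, and higher with the block, so the counts of 34 to 75, 50 and 36 are not comparable with the main 4. Their median over the 32 genes ran from -0.07 to -0.01.

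Signs held for all 32 genes under the 7 alternatives with every library. With a library left out, 12 of the 32 changed sign at least once. Over those 4 fits the log2 fold change ran from -0.20 to 0.11 for Mvd, -0.11 to 0.23 for Ebp, -0.0032 to 0.16 for Acat2, -0.11 to 0.04 for Cyp51, -0.08 to 0.03 for Elovl5, -0.11 to 0.20 for Elovl6, -0.09 to 0.08 for Fads2, -0.0049 to 0.13 for Insig1, -0.03 to 0.07 for Srebf2, -0.04 to 0.02 for Sc5d, -0.03 to 0.24 for Acaca and -0.04 to 0.08 for Fasn. The cause was not tested. For Nsdhl, Mvk, Stard4 and Tm7sf2, with 356 to 876 counts over the 4 libraries, the 95% interval held changes of over 1.5-fold. For Idi1, with 438 counts, it did not.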
